A study of Mus musculus with 6 samples.

Results

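Cadherins and protocadherins are cell surface proteins that hold cells together or let cells recognise each other through calcium-dependent contacts. Every array probe was taken whose annotated gene symbol begins with Cdh followed by a digit or with Pcdh, which gave 46 genes of 15063 with a name on the array, measured by 51 of 21766 probes. They fall into 18 probes of classical cadherins (5 of type I and 13 of type II), 18 probes of clustered protocadherins (3 Pcdha, 14 Pcdhb and 1 Pcdhg) and 15 others (11 of non-clustered protocadherins and 4 of other Cdh genes). All 18 clustered probes name genes that the reference annotation places on chromosome 18.

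The samples were cerebral cortices of mouse embryos at E12.5. Each of 6 mutant cortices (mutants 3, 5, 6, 1, 4 and 7) was hybridised on a two-colour oligonucleotide array against a cortex from a wild-type embryo. The mutants received from their father a LacZ-targeted allele of Mest (also called Peg1) without exons 3 to 8, and a wild-type allele from their mother. Mest is imprinted and expressed from the paternal copy, so that this cross removes the active copy in every cell that expresses the gene. The mutant carried Cy5 on the arrays of mutants 3, 5 and 6 and Cy3 on those of mutants 1, 4 and 7. Each of 3 wild-type cortices was read as shared by a pair of arrays of opposite dye, mutants 3 and 1, mutants 5 and 4, and mutants 6 and 7, although the label for the array of mutant 3 says wild type 1 and the design lists wild types 2, 8 and 9. Strain, litter and sex of the embryos are not recorded in the labels.

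All values are log2 ratios, mutant over wild type, on arrays whose median was shifted to 0, so that a value of 1 is a doubling. A ratio says nothing of how strongly a gene is expressed, so that neither the identity of the tissue nor the presence of a cadherin could be read from these data. In a whole cortex, fewer cells of a type and less RNA per cell cannot be told apart. The probe for the targeted gene Mest lay at -1.36, -1.78 and -1.39 in mutants 3, 5 and 6 and at -1.495, -2.07 and -1.44 in mutants 1, 4 and 7. The direction of the deposited ratios was read from this gene. Between 75.4% and 89.9% of all probes had a value on an array. The number of arrays limits the precision.

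Classical cadherins join neighbouring cells and bind catenins inside the cell, which link them to actin. In the cortical neuroepithelium this happens at the adherens junctions along the ventricle, where N-cadherin, the product of Cdh2, is the main cadherin. Type II cadherins mark regions and cell groups of the embryonic brain. The clustered protocadherins are encoded in tandem arrays from which each neuron is thought to use its own random selection, and they serve self-recognition of neurites. Members of the Pcdha and Pcdhg clusters share constant exons, and the Pcdhb genes resemble each other closely, so that a probe may detect more than the gene it is named for. The positions of the probes in these genes were not determined here.

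Of the 51 probes, 46 had values on enough arrays to be tested, for which 4 arrays were needed, 2 of each dye orientation. No cadherin or protocadherin probe passed an adjusted p of 0.05 (limma), against 0% of all 17476 tested probes. None had an unadjusted p under 0.05 either, against 3.93% of all tested probes, and the smallest was 0.0864. Adjusted p-values of members lay between 0.90 and 0.996, and the adjusted p is not repeated for each gene. Mest, the targeted gene, had a fitted ratio of -1.59 (standard error 0.13) and an adjusted p of 0.60 in limma. The adjusted threshold therefore did not call even the targeted gene. Other scalings or fewer arrays moved the number of members with an unadjusted p under 0.05, to 9 with arrays centred on Gapdh control spots (15.8% of all probes), 15 after quantile normalization (29.3%), 3 with the mutant in Cy5 only (8.16%) and 3 in Cy3 only (10.9%). None passed the adjusted threshold there either. The fitted ratios ranged from -0.99 to 1.05. Of the 46, 32 lay above 0 and 14 below, with a median of 0.070, beside 51.3% above 0 and a median of 0.0069 over all tested probes. No tested member kept 1 sign over all of its arrays, against 5.57% of all tested probes.

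What the arrays could have shown differed between members. The 95% confidence interval lay between -1 and 1, so within a doubling or a halving, for 30 of 46 members (65.2%), beside 70.9% of all tested probes. It did for 13 of 16 classical cadherin probes, 9 of 16 clustered protocadherin probes and 8 of 14 others. The median distance from the estimate to either end of the interval was 0.40 for classical cadherins, 0.58 for clustered protocadherins and 0.63 for the others, beside 0.40 for all probes. For the remaining 16 members the interval reached past a doubling, a halving or both.

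**Figure D1:**
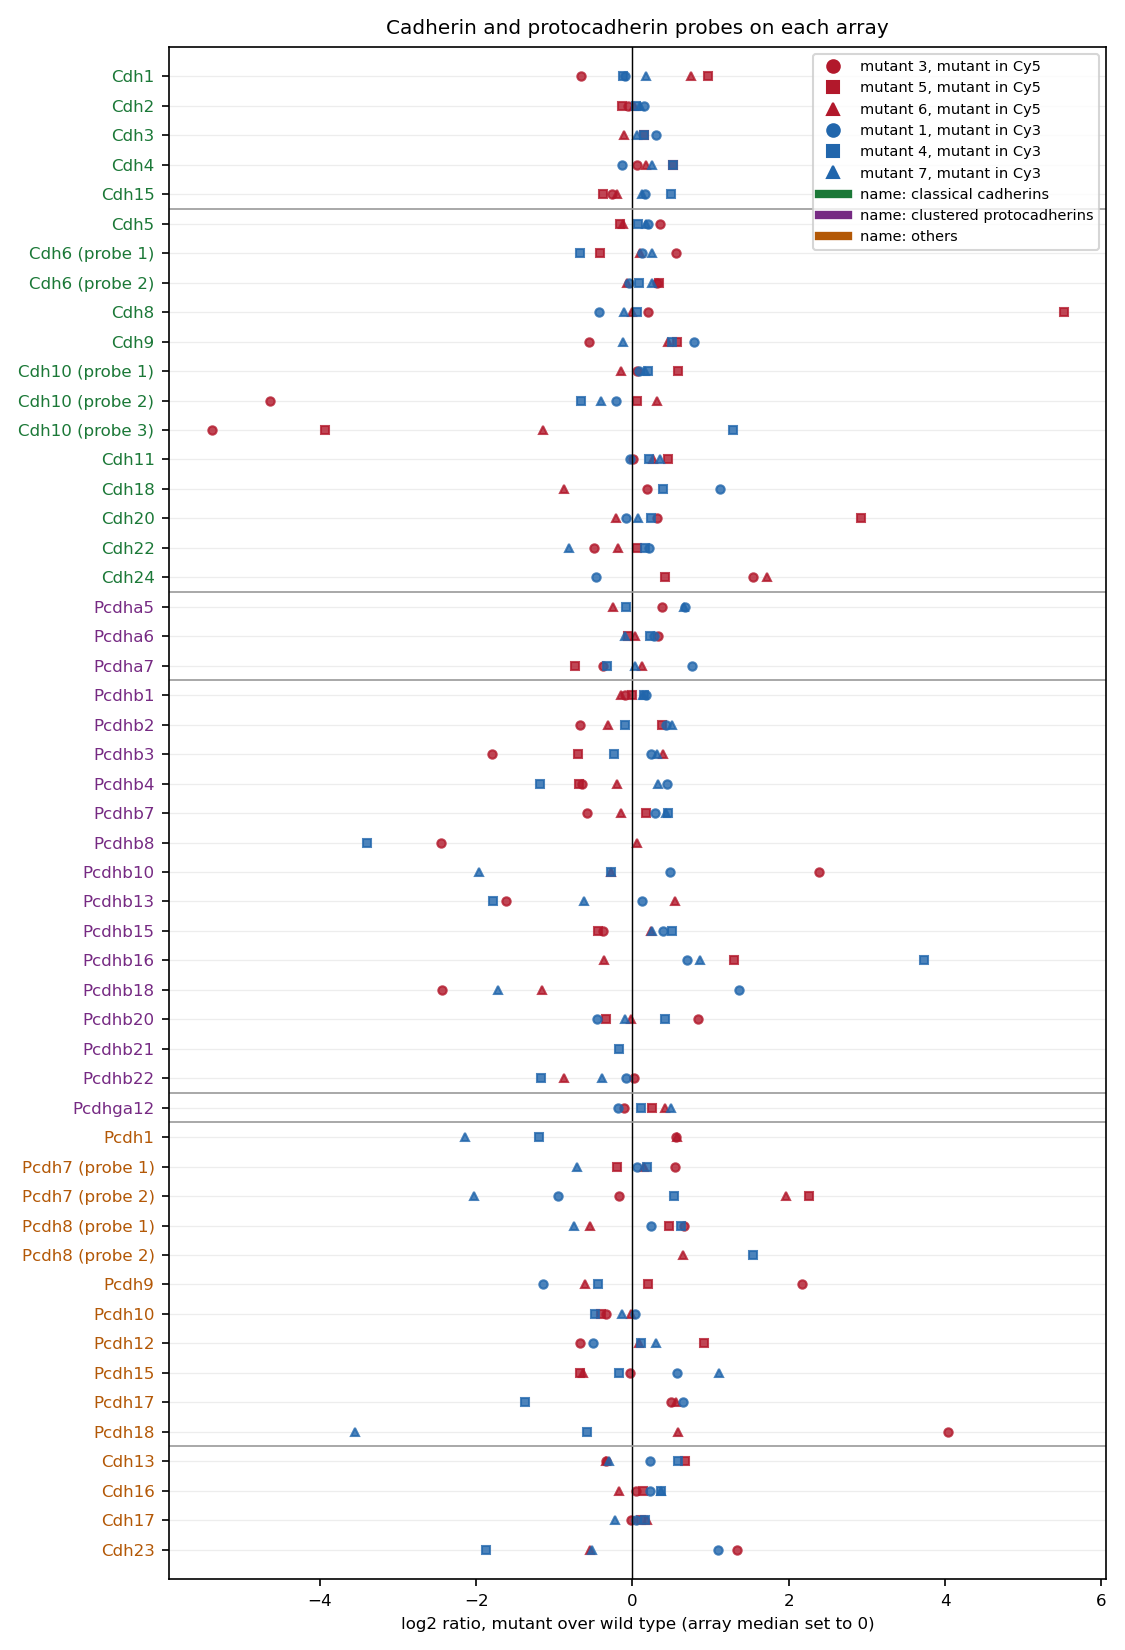
Log2 ratio of mutant over wild type (horizontal axis) for the 51 probes (rows, grouped by class), with a point for each array that has a value, red for the mutant in Cy5 and blue for the mutant in Cy3. All type I values lie between -1 and 1, while Cdh8, Cdh10, Pcdh18 and several Pcdhb probes have single values beyond 2 in size.

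Among the type I cadherins, Cdh2 was the most tightly measured. It had -0.054, -0.13 and 0.025 in mutants 3, 5 and 6, and 0.15, 0.045 and 0.10 in mutants 1, 4 and 7. Fitting gave 0.022 (standard error 0.072, limma, adjusted p = 0.95, above 0 on 4 of 6 arrays). Its 95% confidence interval corresponds to a level between 0.895 and 1.15 times that of wild type, given that each array is centred on its median. Without centring the Cdh2 fit was 0.27, where the median of all probes was 0.26, and with Gapdh centring it was 0.28. For Cdh2 the 3 arrays with the mutant in Cy5 all lay below the 3 with the mutant in Cy3, although the gap between these orientations was small (-0.15 with a standard error of 0.11 for Cy5 minus Cy3).

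Cdh4, which encodes R-cadherin of the developing brain and retina, had the highest fitted ratio of type I. Its values were 0.057, 0.52 and 0.17 in mutants 3, 5 and 6 and -0.13, 0.52 and 0.25 in mutants 1, 4 and 7. The highest 2 values came from the arrays that share wild type 8. The fit gave 0.23 with a standard error of 0.12 (adjusted p = 0.90, above 0 on 5 of 6 arrays), with an interval from -0.081 to 0.54.

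The other type I genes are best known from tissues outside the brain. Cdh1, the gene of epithelial E-cadherin, scattered from -0.65 in mutant 3 to 0.97 in mutant 5, with a fit of 0.17 and a standard error of 0.26. That fit was 0.018 without mutant 5 and 0.42 without mutant 3. Cdh3, which encodes placental P-cadherin, had no value for mutant 3 and ranged from -0.10 to 0.31 over the other 5 arrays, with a fit of 0.10 (standard error 0.10). Cdh15, the gene of muscle M-cadherin, had -0.26, -0.38 and -0.19 in mutants 3, 5 and 6 against 0.16, 0.50 and 0.12 in mutants 1, 4 and 7. Its orientations were opposite in sign and their mean was close to 0, with a fitted ratio of -0.0078 (standard error 0.098) beside a dye coefficient of -0.54 (standard error 0.15, adjusted p = 0.17).

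Of the type II cadherins, Cdh11, a cadherin of mesenchyme that is also made in the embryonic brain, had the smallest p. It lay at 0.003, 0.45 and 0.27 in mutants 3, 5 and 6 and at -0.029, 0.21 and 0.35 in mutants 1, 4 and 7. With 5 of 6 arrays above 0, it had a fitted ratio of 0.21 (standard error 0.10, adjusted p = 0.90, interval from -0.050 to 0.47). Cdh5, the VE-cadherin gene of endothelial junctions, had a fit of 0.086 (standard error 0.11). Of 6 endothelial marker genes 3 lay above and 3 below 0, with none past the threshold and array medians from -0.29 to 0.20. Cdh9, Cdh18 and Cdh22, which belong to the same type II family, had fitted ratios of 0.28, 0.15 and -0.18, with standard errors of 0.25, 0.27 and 0.20.

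For Cdh8 and Cdh20 the fitted ratio rested on mutant 5. On the array of that mutant 13.0% of the values of all probes lay beyond 2 in size, against 4.87% to 9.49% on the other arrays. Cdh8, whose product marks rostral and other territories of the embryonic forebrain, had 0.20, 5.52 and -0.003 in mutants 3, 5 and 6 and -0.43, 0.064 and -0.11 in mutants 1, 4 and 7. The other 5 arrays stayed between -0.43 and 0.20, so that the fitted 0.87 (standard error 0.89) became -0.031 without mutant 5. Cdh20 had 0.31, 2.92 and -0.21 in mutants 3, 5 and 6 and -0.083, 0.24 and 0.077 in mutants 1, 4 and 7. Its fitted ratio of 0.54 (standard error 0.48) became 0.063 without mutant 5. Cdh24, which was not tested, had 1.55, 0.42 and 1.72 in mutants 3, 5 and 6 and -0.46 in mutant 1.

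The genes with more than 1 probe were 4, and their probes did not follow each other. The Cdh10 probe CG_Mm_3005200_1 lay at 0.062, 0.58 and -0.15 in mutants 3, 5 and 6 and at 0.086, 0.20 and 0.16 in mutants 1, 4 and 7. A further Cdh10 probe, CG_Mm_EXT_3108369_1, gave -4.64, 0.054 and 0.32 in mutants 3, 5 and 6 and -0.21, -0.65 and -0.40 in mutants 1, 4 and 7. These probes shared a sign on 1 of 6 arrays, and the fit of the EXT probe, -0.92, became -0.10 without mutant 3. The untested Cdh10 probe CG_Mm_EXT_3112929_1 had -5.38, -3.93 and -1.14 in mutants 3, 5 and 6 but 1.29 in mutant 4. Cdh10 therefore had no agreed direction, with fits of 0.16 (standard error 0.13) and -0.92 (standard error 0.82) for its tested probes.

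The pair of Cdh6 probes, for a cadherin of the lateral and caudal embryonic forebrain, shared a sign on 2 of 6 arrays and had fits of -0.010 and 0.15. They differed by 0.35 on average and by at most 0.76 on an array. For Pcdh7, a non-clustered protocadherin, the probes shared a sign on 3 of 6 arrays and differed by 1.28 on average, with fits of 0.006 (standard error 0.19) and 0.27 (standard error 0.52). The wider of these, CG_Mm_3005320_1, had -0.17, 2.26 and 1.97 in mutants 3, 5 and 6 and -0.95, 0.54 and -2.02 in mutants 1, 4 and 7. Its fit was -0.063 without mutant 4, -0.032 without mutant 6 and 0.044 without mutant 5. The Pcdh8 probes had values in common on 2 arrays and shared a sign on 1 of them.

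**Figure D2:**
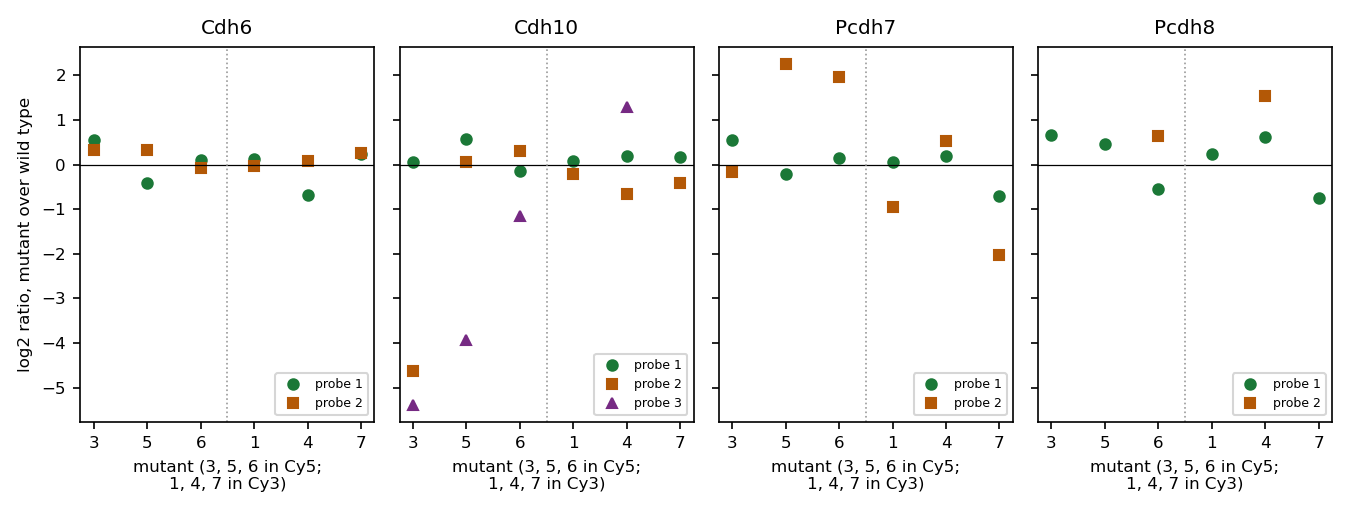
Log2 ratio of mutant over wild type (vertical axis) for every probe of the 4 genes with several probes, by mutant (horizontal axis, Cy5 arrays left of the dotted line). In mutant 3, 2 of the Cdh10 probes lie over 4 units below the other, while the Cdh6 probes lie within 0.76 of each other on every array.

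The clustered protocadherins had a median fitted ratio of 0.046, with 10 of 16 tested probes above 0 and 6 below. In the Pcdha cluster, Pcdha6 lay at 0.33, -0.062 and 0.033 in mutants 3, 5 and 6 and at 0.28, 0.22 and -0.094 in mutants 1, 4 and 7, with a fit of 0.12 (standard error 0.10). Pcdha5 and Pcdha7 had fits of 0.21 and -0.086, each with a standard error near 0.20. The Pcdhg cluster was represented by Pcdhga12, at -0.11, 0.26 and 0.42 in mutants 3, 5 and 6 and at -0.18, 0.11 and 0.49 in mutants 1, 4 and 7. The lowest 2 values were those of mutants 3 and 1, which were read as sharing a wild type, and the fit was 0.16 (standard error 0.13).

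Within the Pcdhb cluster, 7 of 12 tested probes lay above 0 and 5 below. Pcdhb1 was the most tightly measured of all 46 members, with -0.096, -0.0005 and -0.15 in mutants 3, 5 and 6 and 0.17, 0.15 and 0.13 in mutants 1, 4 and 7. Its fit was 0.034 (standard error 0.071), with an interval from -0.15 to 0.21. Pcdhb22 had the smallest p of the cluster, with 0.022 and -0.88 in mutants 3 and 6 and -0.086, -1.17 and -0.39 in mutants 1, 4 and 7. It was below 0 on 4 of 5 arrays and had a fitted ratio of -0.53 (standard error 0.25, adjusted p = 0.90), which was -0.33 without mutant 4.

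Pcdhb16 had the highest fitted ratio of all members, 1.05 with a standard error of 0.60 (adjusted p = 0.90). Its values were 1.30 and -0.36 in mutants 5 and 6 and 0.70, 3.74 and 0.87 in mutants 1, 4 and 7, so that mutant 4 stood far above the rest, and without it the fit was 0.63. Pcdhb13 and Pcdhb4 had fits of -0.71 (standard error 0.53) and -0.32 (standard error 0.27), with values on both sides of 0. The Pcdhb13 fit was -0.13 without mutant 3, -0.39 without mutant 4 and -1.40 without mutant 6, and the Pcdhb4 fit was -0.064 without mutant 4. Pcdhb18 had the lowest fit of all members, -0.99 with a standard error of 0.81, from -2.43 and -1.16 in mutants 3 and 6 and 1.36 and -1.72 in mutants 1 and 7. Pcdhb2, Pcdhb3, Pcdhb7, Pcdhb10, Pcdhb15 and Pcdhb20 had fits between -0.30 and 0.26. The untested Pcdhb8 had -2.45, 0.059 and -3.39 in mutants 3, 6 and 4, and Pcdhb21 had -0.17 in mutant 4 alone.

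Among the non-clustered protocadherins, Pcdh10, which encodes OL-protocadherin of developing axon tracts, lay below 0 on 5 of 6 arrays. It had -0.34, -0.41 and -0.019 in mutants 3, 5 and 6 and 0.030, -0.48 and -0.13 in mutants 1, 4 and 7. The fit was -0.22 (standard error 0.11, adjusted p = 0.90, interval from -0.51 to 0.063), and with arrays left uncentred it was 0.029, where all probes had a median of 0.26. Pcdh1, a protocadherin of epithelia and brain, had the smallest p of all members and opposite signs in the dye orientations. It lay at 0.56 and 0.58 in mutants 3 and 6 against -1.19 and -2.14 in mutants 4 and 7, with a fitted ratio of -0.52 (standard error 0.22, adjusted p = 0.90) and a dye coefficient of 2.30 (standard error 0.38, adjusted p = 0.14). This fit leaves out a ceiling value in mutant 1 and was -2.71 with that value kept, -0.31 without mutant 7 and -0.79 without mutant 4.

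Pcdh8, related to the paraxial protocadherin of frog embryos, had a fit of 0.12 (standard error 0.25) for its tested probe. Pcdh12, an endothelial protocadherin, had 0.040 (standard error 0.25), and Pcdh15, a component of the tip links of inner ear hair cells, had 0.031 (standard error 0.22). Pcdh9, a member of the same non-clustered family as Pcdh7, had -0.17 with a standard error of 0.53. Pcdh17, which is expressed by groups of forebrain neurons, had 0.50 and 0.56 in mutants 3 and 6 and 0.64 and -1.37 in mutants 1 and 4. Its fit was 0.029 (standard error 0.43) and became 0.59 without mutant 4 and -0.42 without mutant 1. Pcdh18 had 4.04 and 0.58 in mutants 3 and 6 and -0.58 and -3.55 in mutants 4 and 7, with a fit of 0.30 (standard error 0.88). The dye orientations of Pcdh18 did not overlap.

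The remaining Cdh genes encode cadherins without the classical catenin-binding tail. Cdh16, a kidney cadherin, lay at 0.048, 0.13 and -0.17 in mutants 3, 5 and 6 and at 0.22, 0.36 and 0.37 in mutants 1, 4 and 7, with a fit of 0.16 (standard error 0.085). Cdh13, the lipid-anchored T-cadherin, and Cdh17, a cadherin of liver and intestine, had fits of 0.084 (standard error 0.20) and 0.045 (standard error 0.095). Cdh23, the tip link partner of Pcdh15, scattered from -1.87 to 1.34 and had a fit of -0.11 (standard error 0.57).

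**Figure D3:**
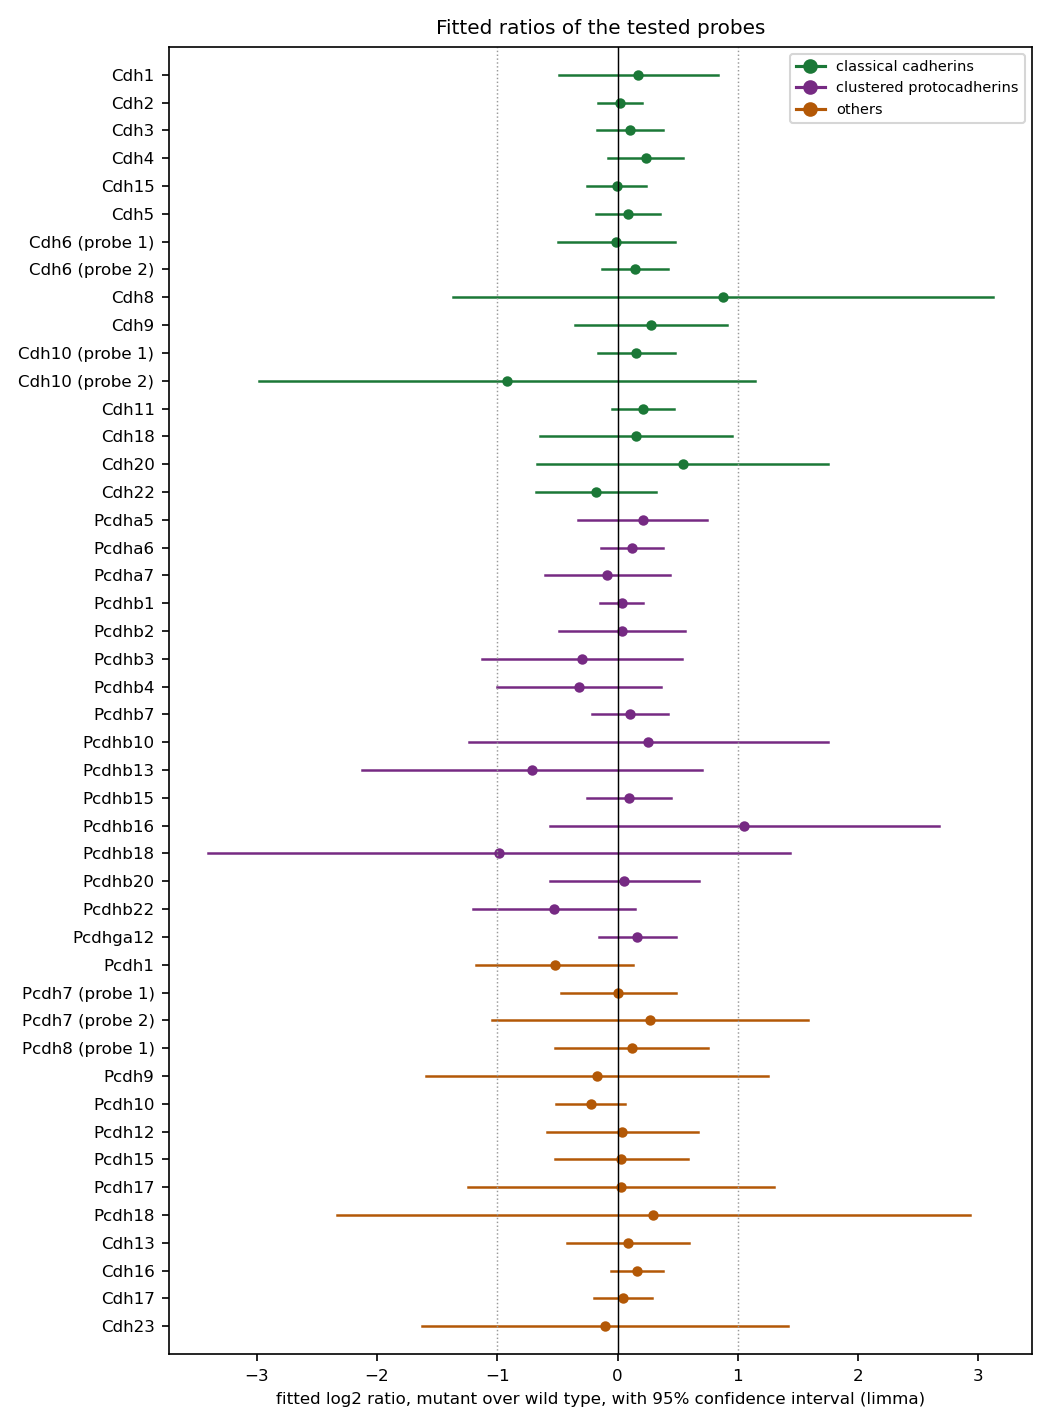
Fitted log2 ratio of mutant over wild type (horizontal axis) with its 95% confidence interval from limma for the 46 tested probes (rows), coloured by class, with dotted lines at -1 and 1. Every interval includes 0, and Cdh2 and Pcdhb1 have the narrowest ones.

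The 3 classes differed by less than the spread between arrays. Classical cadherins had a median fitted ratio of 0.15 with 12 of 16 tested probes above 0, the clustered protocadherins 0.046 with 10 of 16, and the others 0.036 with 10 of 14, beside 0.0069 for all tested probes. By array, the median of the classical cadherins was 0.057, 0.33 and -0.035 in mutants 3, 5 and 6 and 0.11, 0.15 and 0.12 in mutants 1, 4 and 7. The clustered protocadherins had -0.37, -0.062 and -0.15 in mutants 3, 5 and 6 and 0.33, -0.082 and 0.19 in mutants 1, 4 and 7. The lowest and highest of these came from mutants 3 and 1, the arrays read as sharing wild type 2. The others had 0.27, 0.17 and 0.035 in mutants 3, 5 and 6 and 0.14, -0.028 and -0.41 in mutants 1, 4 and 7.

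The classical median lay above the clustered median on 4 of 6 arrays, by 0.15 ± 0.26 on average (SD, n = 6 arrays), and above that of the others on 3 of 6, by 0.094 ± 0.26. The clustered median minus that of the others was -0.052 ± 0.42 (SD, n = 6 arrays). No test was made of these differences, since the members were grouped with earlier results of these data known. Without mutant 5 the classical median was 0.057. The median of the clustered genes was 0.014 without mutant 3 or without mutant 5, and 0.070 without mutant 6. That of the others was -0.025 without mutant 3, -0.022 without mutant 4 and 0.086 without mutant 6.

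**Figure D4:**
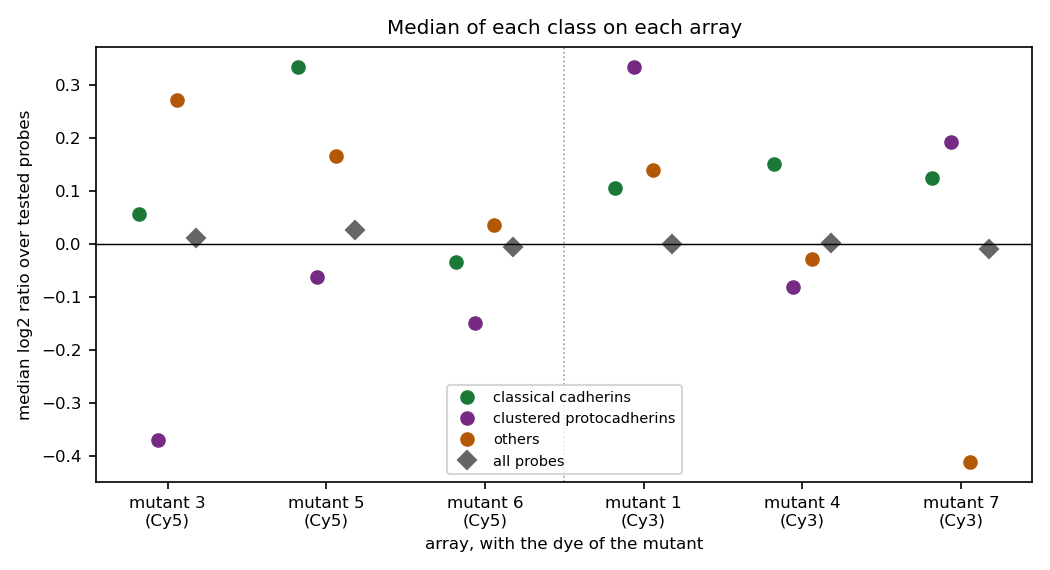
Median log2 ratio of mutant over wild type over the tested probes of each class (vertical axis) on each array (horizontal axis, with the dye of the mutant). The clustered protocadherins range from -0.37 in mutant 3 to 0.33 in mutant 1, while the median of all probes stays close to 0.

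Some members separated by dye orientation. For 9 of 46 members the values of the orientations did not overlap, against 29.7% of all tested probes. With the mutant in Cy5 lower, these were Cdh2, Cdh15, Cdh18, Pcdhb1, Pcdhb7, Pcdhb15 and Cdh16, and with the mutant in Cy5 higher, Pcdh1 and Pcdh18. The dye term had an unadjusted p under 0.05 for 6 members, against 20.0% of all tested probes, and passed the adjusted threshold for none, against 0.269%. With the mutant in Cy5 the median fitted ratio was 0.12 for classical cadherins, -0.20 for clustered protocadherins and 0.18 for the others. With the mutant in Cy3 it was 0.12, 0.14 and -0.17. The medians of the clustered genes and the others thus changed sign with the orientation. That of the classical cadherins did not, although the tested probes of Cdh1, Cdh2, Cdh8, Cdh15 and Cdh18 and the Cdh6 probe CG_Mm_3005147_1 did. These fits held 18, 17 and 14 probes in Cy5 and 16, 16 and 14 in Cy3.

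**Figure D5:**
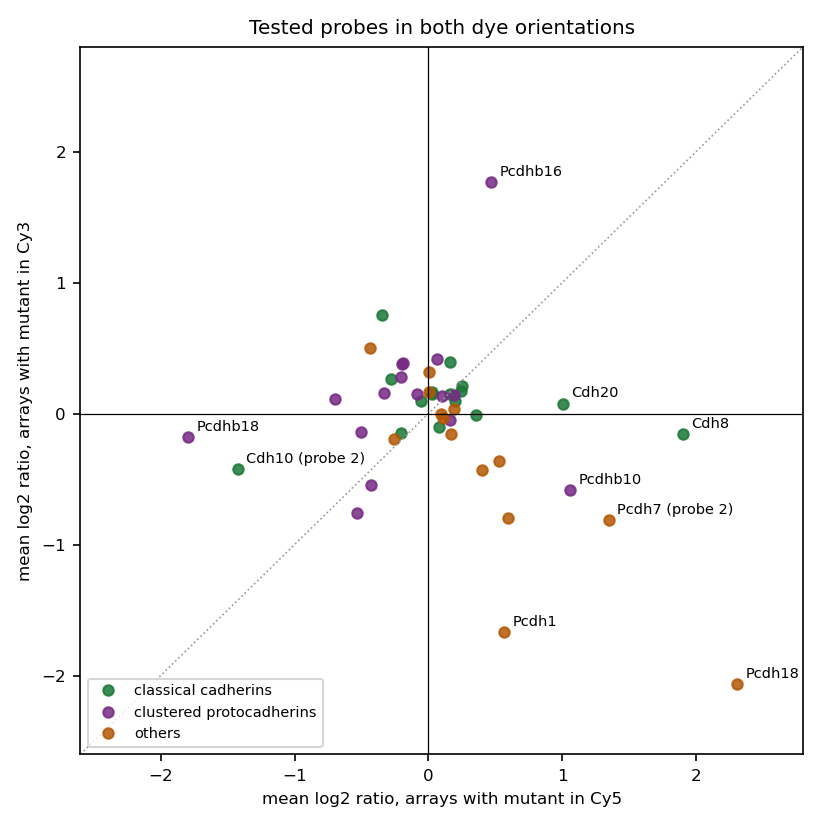
Mean log2 ratio of mutant over wild type over the Cy5 arrays of the mutants (horizontal axis) and over the Cy3 arrays (vertical axis) for the 46 tested probes, coloured by class, with a dotted line of equality. Pcdh18 and Pcdh1 lie in the lower right, far from the line, and most classical cadherins lie near the centre.

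Averaging each pair of arrays that were read as sharing a wild type cancels a dye effect and gave 3 values per probe. Among the 33 members with values on all 6 arrays, the 3 pair means shared a sign for 7, against 29.2% of all such probes. They were Cdh6 (probe CG_Mm_3005353_1), Cdh9, Cdh10 (probe CG_Mm_3005200_1), Pcdhb15 and Cdh16 above 0, and Pcdh10 and Cdh10 (probe CG_Mm_EXT_3108369_1) below 0. Pcdh10 had pair means of -0.15, -0.44 and -0.074 for wild types 2, 8 and 9, and Cdh16 had 0.14, 0.25 and 0.10.

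Probes whose identifier carries EXT scattered more than the others, and they held most of the clustered protocadherins. The median SD over arrays was 0.77 for the 22 tested members among them, beside 0.58 for all such probes. It was 0.30 for the 24 other tested members, beside 0.27 for all other probes. Of the 18 clustered protocadherin probes 16 were of the EXT kind, against 4 of 18 classical cadherin probes, so that class and kind of probe largely overlap. Within the EXT kind the median SD was 0.51 for 14 tested clustered probes, below the 0.58 of all such probes. It was 1.13 for 2 tested classical probes and 1.31 for 6 tested others. The part of the kind of probe in the spread of the clustered genes was not tested. Over all members, 12 of 46 had an SD above 1, against 22.8% of all tested probes.

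Genes that act with cadherins gave no call either. In the list of catenins and plakophilins, which link cadherins to the cytoskeleton, 13 of 16 tested probes lay above 0 and 3 below, with a median of 0.14. Their median ranged from -0.092 in mutant 1 to 0.40 in mutant 5. Over all 45 tested probes of catenins, desmosomal cadherins, Fat, Dachsous and Celsr proteins, nectins, regulators of the protocadherin clusters, and cadherin repressors and proteases, 33 lay above 0 and 12 below with a median of 0.084. None had an unadjusted p under 0.05. Over all tested probes 51.3% lay above 0 and 3.93% had such a p. The share above 0 was 55.6% for all tested probes without EXT in their identifier, the kind of most probes in these lists, and 48.4% for those with it. The smallest p above 0 belonged to Vcl (vinculin, 0.21, standard error 0.098), Celsr3, an atypical cadherin of axon tract formation (0.16, standard error 0.076), and Ctnnd1 (p120 catenin, 0.17, standard error 0.081). Celsr3 was above 0 on 6 of 6 arrays, from 0.004 to 0.30, with an adjusted p of 0.90 in limma. The smallest p below 0 belonged to Afdn (afadin, which joins nectins to actin, -0.34, standard error 0.15), Dsg3, a desmosomal cadherin of stratified epithelia (-0.44, standard error 0.25), and Dnmt3b, a DNA methyltransferase that acts on protocadherin promoters (-0.11, standard error 0.087).

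Markers of cells in and around the cortex also gave no call among 41 tested probes. Of these, 2 had an unadjusted p under 0.05, Krt18 (-0.68) and the Y-linked Eif2s3y (-0.35), beside 3.93% of all tested probes. The Krt18 values did not overlap between the dye orientations, averaging -0.14 over mutants 3, 5 and 6 but -1.21 over mutants 1, 4 and 7. Krt8, also in the epidermal list, had a fit of -0.11 (standard error 0.14). The median fitted ratio was -0.0026 for cortical progenitor genes, -0.13 for genes of young neurons, -0.036 for meningeal and mesenchymal genes, -0.11 for epidermal genes, 0.056 for skeletal muscle genes and -0.056 for choroid plexus genes. It was -0.090 for endothelial genes. The epidermal median was lowest, -1.02, in mutant 1, where the markers disagreed, from -3.69 for Trp63 to -0.012 for Krt8. Of the sex-linked genes, Xist ranged from -2.38 in mutant 4 to 3.18 in mutant 3, and the Y-linked Uty from -3.255 in mutant 7 to 0.59 in mutant 4. None of the members lies on the X chromosome. The part of any of these in the ratios of cadherins was not tested.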

How the data were processed

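The deposited values are log2 ratios of 6 two-colour arrays, used as the authors gave them. What the authors did to the signals, and the base and direction of the ratios, is not stated in the labels. The log2 scale was taken from the ceiling of the values and the direction from the dye labels and Mest. Values at the ceiling of 16.61 (588, of which 2 in member probes) were treated as missing, as were empty entries, and 232 Gapdh control spots were left out. Every ratio was set as mutant over wild type, and arrays were centred on their medians. The fit across probes used lmFit and eBayes of limma 3.58.1 (R 4.3.3), with a genotype intercept and a dye term, with the shared wild type as a random block (duplicateCorrelation, correlation 0.246) and Benjamini-Hochberg adjustment over 17476 probes. Without spot intensities, dim or saturated spots and bias with intensity could not be checked.

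Genes were named from the platform's old annotation, and all 51 member probes matched the GRCm38.p6 gene table with 0 symbols changed. Members, classes and gene lists were chosen with earlier results of these data known. Named members were all type I cadherins, the 4 smallest p of each subclass and all probes of genes with several, and of related genes the 3 smallest p per direction. Others were named to account for every member. The fit was tested on 3 simulated datasets, in which 100 probes were raised by a log2 change of 1 and 100 by 2. At the adjusted threshold it called 43% of the changes of 1 and 78.7% of those of 2. These shares hold for that number of changed probes and for normally distributed noise. In the real fit 0 of 17476 probes passed, and Mest at -1.59 had an adjusted p of 0.60 (limma). The simulated shares therefore do not say what the real fit could call. Of unchanged simulated probes, 5.24% had an unadjusted p under 0.05. The fit left out 1 array at a time with at least 3 values and 1 per orientation. The alternatives covered the block, dye term, centring, normalization, missing values, moderation and single dye orientations.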

Additional observations from a re-analysis of the deposited data

Results flagged for a closer look

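A single array stood apart from the others for 4 of the 50 values examined (46 member probes and 4 class medians), by a test that chance passes in about 1 of 20 groups. The share of all probes that pass this test is not given here, so the count is not read as a trait of the members. Over all probes and arrays 7.91% of values lay beyond 2 in size, against 5.88% of member values. Cdh8 had 5.52 in mutant 5, and Cdh20 had 2.92 in the same mutant. The Cdh10 probe CG_Mm_EXT_3108369_1 had -4.64 in mutant 3. Pcdh17 had -1.37 in mutant 4, below 3 values between 0.50 and 0.64.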

How the results depend on the processing

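No member and no other probe passed the adjusted threshold under any of the 17 alternatives (limma), with 0 to 2 members at an unadjusted p under 0.05 when any 1 array was left out (2.90% to 6.68% of all probes). This number was 3 with the mutant in Cy5 only and 3 in Cy3 only (8.16% and 10.9% of all probes), 9 with arrays centred on Gapdh control spots (15.8% of all probes) and 15 after quantile normalization (29.3% of all probes). Not centring, centring on Gapdh and quantile normalization moved the median of all probes to 0.26, 0.27 and 0.26, and 82.6%, 84.8% and 82.6% of members then lay above 0, beside 84.6%, 84.5% and 84.1% of all probes. The class medians became 0.395 (classical), 0.298 (clustered) and 0.288 (others) without centring, 0.396, 0.307 and 0.296 with Gapdh, and 0.361 for classical cadherins after quantile normalization. Relative to the median of all probes the classical median was 0.14, 0.13 and 0.11 in these, against 0.14 with each array centred on its median.

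Of 30 probes followed, 15 kept their sign throughout. Without centring, with Gapdh and with quantiles, Cdh15 became 0.24, 0.25 and 0.27, Cdh6 (CG_Mm_3005147_1) 0.24, 0.25 and 0.23, Pcdha7 0.17, 0.17 and 0.23, and Pcdh10 0.029, 0.037 and 0.043. Cdh23 became 0.16 with Gapdh. With the array labelled wild type 1 as its own block, Cdh6 became 0.030 and Cdh23 0.030. In Cy5 only, Cdh2 was -0.052, Cdh6 0.081, Pcdh1 0.57 and Cdh23 0.40. In Cy3 only, Cdh1 was -0.012, Cdh15 0.26, Cdh8 -0.16, Pcdha7 0.16, Pcdh7 -0.15 and -0.81, Pcdh17 -0.37 and Cdh17 -0.0013. Leaving out 1 array gave -0.085 to 0.17 for Cdh13, -0.068 to 0.036 for Cdh15, -0.0043 to 0.11 for Cdh17, -0.48 to 0.34 for Cdh23, -0.11 to 0.13 for Cdh6, -0.081 to 0.14 and -0.063 to 0.64 for Pcdh7, -0.029 to 0.23 for Pcdh8, -0.24 to 0.032 for Pcdha7, -0.031 to 1.36 for Cdh8 and -0.42 to 0.59 for Pcdh17. The cause of these shifts was not tested.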

Other observations

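Member probes without EXT in their identifier lay above 0 for 21 of 24, against 55.6% of all tested probes of that kind. Those with EXT lay above 0 for 11 of 22, against 48.4%. The members without EXT had a median of 0.13, and their median was above 0 on 6 of 6 arrays. This split was made after the values were seen and was not tested.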
